A study of Mus musculus with 2 samples.

Results

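The keratin-associated protein genes (Krtap) of the mouse were described in 2 RNA-seq libraries of dorsal skin, 1 stretched and 1 not. Members were chosen by symbol, as all gene symbols in the count table that begin with Krtap, and the first number in the symbol was read as the subfamily. This gave 53 of 24421 symbols, of which 51 exceeded 3 counts in Control or Tension (defined below) and are called measured. Krtap13 and Krtap20-2 had 0 counts in both libraries and are unmeasured. The counts served only to set that floor, but the family was picked for description with its lower level in stretched skin already known, so its fold changes are given as a description.

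The study asked how mechanical stretch of the skin affects hair growth in mice. One library came from the whole layer of back skin stretched for 5 days at a strain of 33% (Tension), which the methods describe as the starting strain of a stretch increased each day, and the other from non-stretched skin at the same day (Control). Both were from wild type C57BL6/J mice, which the study's methods describe as 8-week-old females in the resting phase of the hair cycle, with animals showing focal growth left out. The Control library goes against that description, since it held many transcripts of growing follicles, such as 61054 counts of the sheath gene Tchh and 6503 of the shaft keratin Krt35. Tension held such transcripts too, with 6885 and 977 counts of these genes. The reason was not tested, and every fold change below is relative to this Control. The labels do not give the number of animals behind each library. With 1 library per condition there was no replicate check, so each difference is between these 2 libraries and no p-value is given. Values are counts, counts relative to the library total (CPM), or CPM per kilobase of exon (FPKM), and every interval is an exact 95% interval that covers counting error only. The libraries held 14152379 (Control) and 11648655 (Tension) counts, at which 3 counts are worth 0.212 and 0.258 CPM.

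Keratin-associated proteins form the matrix that surrounds and crosslinks the keratin filaments of the hair shaft. They are made late, in the cortex and cuticle cells of the growing follicle, after the early hair keratins Krt35 and Krt85 have appeared in the matrix and precortex. By amino acid content they are divided into high-glycine-tyrosine proteins and cysteine-rich proteins, and the latter into high sulphur and ultra-high sulphur proteins. Hair keratins and keratin-associated proteins are low in skin whose follicles rest. In whole skin, fewer shaft-forming cells and less RNA per shaft-forming cell cannot be told apart.

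All 51 measured Krtap genes were lower in the stretched library, and each was at least 2-fold lower. The 53 genes together took 27191 counts (1921 CPM) in Control and 961 counts (82.5 CPM) in Tension, or 0.192% and 0.00825% of the library. Their sum was 23.3-fold lower (interval 21.8 to 24.9). Of 16255 measured genes in the whole table, 61.5% were lower at all, 5.47% were at least 2-fold lower and 6.32% were at least 2-fold higher. The counting interval lay wholly below 0 on the log2 scale for all 51 Krtap genes and for 33.5% of measured genes. At least 16-fold lower were 33 Krtap genes and 0.320% of measured genes, a group of 52 genes that held 33 Krtap genes and 7 hair keratins (Krt31, Krt33a, Krt33b, Krt34, Krt81, Krt83 and Krt86). Since the family was picked for this contrast, nothing is read from these counts about the family.

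The median log2 fold change over the 51 genes was -4.19, against -0.12 over all measured genes. It ran from -1.83 to -7.59 when counts of 3 or fewer were set to 3. In Tension 18 of the 51 genes had 3 counts or fewer, so their values in this range are set by that floor and not by a measured level. For genes at 0 counts in Tension, "at least" below means against 3 counts there, and the exact interval of such a gene, which also carries the error of its Control count, reaches a somewhat smaller fold. In Control all 51 measured genes had between 13 and 3390 counts.

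**Figure D1:**
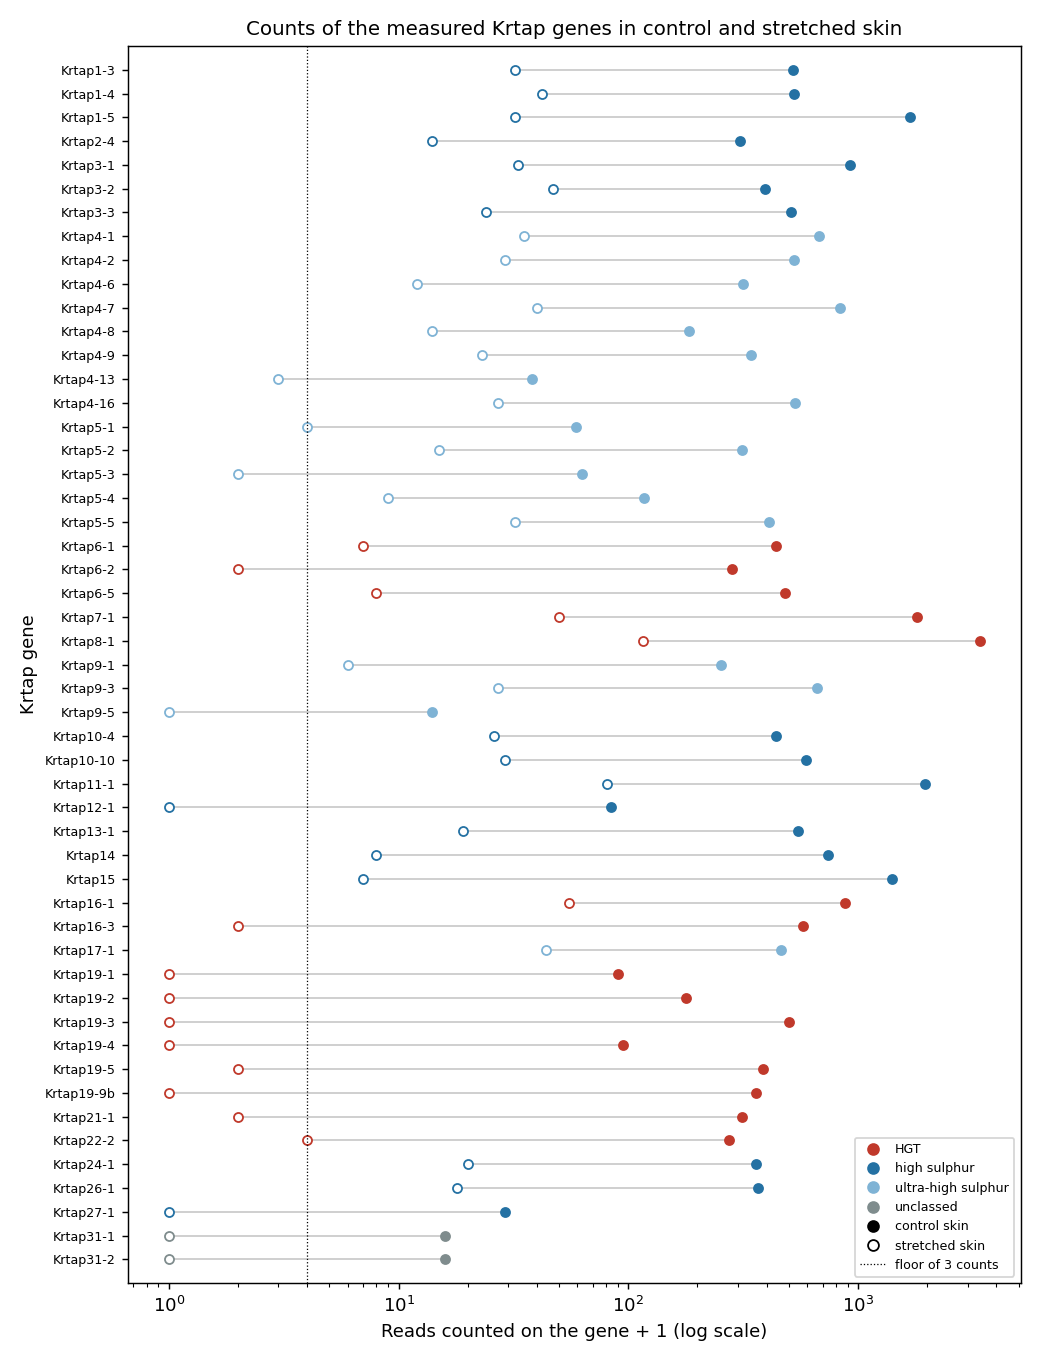
Counts + 1 of each measured Krtap gene on a log axis, with filled points for Control, open points for Tension and colours for the class (1 library per condition, so no error bars). The dotted line is the floor of 3 counts. Every gene lies lower in Tension, and 18 of 51 reach 3 counts or fewer there.

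Because the genes moved in the same direction but by different amounts, the promoters of 4 of them are shown as examples. Krtap15 and Krtap19-3 were among the most reduced, and Krtap8-1 and Krtap3-3 remained detectable in stretched skin. Each sequence runs from 250 bases before to 50 bases after the annotated start (RefSeq, GRCm38.p6), 5′ to 3′ on the gene's strand. Capitals mark matches on either strand to TATAAA or TATATAA, forms of the TATA box that positions the polymerase, and to CTTTGA, the core bound by LEF/TCF factors. The first promoter lies at chr16:88828759-88829058 on the plus strand. The others lie on the minus strand at chr16:88877989-88878288, chr16:89487903-89488202 and chr11:99550814-99551113.
Krtap15: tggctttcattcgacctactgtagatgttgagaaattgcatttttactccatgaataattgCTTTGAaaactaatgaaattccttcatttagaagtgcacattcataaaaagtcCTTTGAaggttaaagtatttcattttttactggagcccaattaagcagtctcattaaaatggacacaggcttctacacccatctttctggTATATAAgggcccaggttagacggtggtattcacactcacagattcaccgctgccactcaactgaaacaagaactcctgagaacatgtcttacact
Krtap19-3: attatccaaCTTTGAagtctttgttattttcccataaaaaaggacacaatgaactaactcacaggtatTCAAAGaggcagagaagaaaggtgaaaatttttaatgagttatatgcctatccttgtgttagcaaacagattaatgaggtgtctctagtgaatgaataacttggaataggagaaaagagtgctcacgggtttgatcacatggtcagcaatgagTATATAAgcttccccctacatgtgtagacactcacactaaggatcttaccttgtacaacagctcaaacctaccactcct
Krtap8-1: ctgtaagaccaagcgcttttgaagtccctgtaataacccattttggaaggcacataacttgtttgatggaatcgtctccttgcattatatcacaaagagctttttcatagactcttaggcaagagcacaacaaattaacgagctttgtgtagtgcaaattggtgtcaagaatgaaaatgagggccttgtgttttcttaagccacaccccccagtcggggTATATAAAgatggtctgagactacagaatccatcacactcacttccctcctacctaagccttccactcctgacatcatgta
Krtap3-3: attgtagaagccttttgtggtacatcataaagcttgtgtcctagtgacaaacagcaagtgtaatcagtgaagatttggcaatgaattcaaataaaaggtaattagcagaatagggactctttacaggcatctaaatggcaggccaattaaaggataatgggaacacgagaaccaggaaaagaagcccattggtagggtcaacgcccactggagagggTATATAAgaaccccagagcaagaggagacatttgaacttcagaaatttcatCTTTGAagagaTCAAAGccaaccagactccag

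In each of these 4 promoters a TATATAA match stands a short way before the start, and in Krtap8-1 it overlaps a TATAAA match. CTTTGA matches are present in Krtap15, Krtap19-3 and Krtap3-3, and these letters are not in the window of Krtap8-1. CTTTGA was thus in the 2 most reduced of these 4 and in the less reduced Krtap3-3 (511 and 23 counts in Control and Tension). In Krtap3-3 both matches lie after the start, whereas those of Krtap15 and Krtap19-3 lie before it.

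A promoter window was present for 46 of the 51 measured genes. Within 50 bases before the start, on the gene's strand, TATAAA or TATATAA was found in 34 of the 46 (73.9%), against 3.23% of 32851 promoters of all genes. TATATAA was added to the search after the first motif had been counted, and TATATAAA counts for both forms. Over the whole window and both strands, TATAAA was in 80.4% of the Krtap promoters and 13.6% of all promoters, and CTTTGA in 30.4% and 16%. TTTATNA, a core bound by HOX13 factors such as the shaft regulator Hoxc13, was in 32.6% and 14.1%. With A at N, its other strand reads TTATAAA, which holds TATAAA, so a TATA box can be counted for both. How much of this share comes from that overlap was not tested. ACGC, the core bound by the shaft regulator Foxn1, was in 23.9% and 55.3%. These shares describe the promoter letters only and do not show that a factor binds there.

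The high-glycine-tyrosine genes (HGT in the plots, subfamilies 6, 7, 8, 16, 19, 20, 21 and 22) mostly code for small proteins of the cortex matrix, with Krtap16-1, at 502 codons, an exception in these sequences. There were 16 symbols, of which 15 were measured, and their sum went from 10029 counts in Control to 238 in Tension. This was a log2 fold change of -5.12 (interval -5.31 to -4.93), or 34.7-fold lower. The median gene was 60.1-fold lower with the floor applied, 14 of the 15 genes were at least 16-fold lower, and 10 had 3 counts or fewer in Tension.

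Krtap8-1 had the most reads of the whole family, with 3390 counts in Control and 115 in Tension (FPKM 417 and 17.2). It was 24.3-fold lower, with a log2 fold change of -4.60 (interval -4.88 to -4.33), and it had the highest FPKM of the Krtap genes in both libraries. Krtap7-1 had 1804 and 49 counts (FPKM 205 and 6.77), a log2 fold change of -4.92 (interval -5.36 to -4.51). Krtap16-1 had 880 and 54 counts, and its log2 fold change of -3.75 (interval -4.17 to -3.35) was the smallest of the class. These 3 genes held 60.6% of the counts of the class in Control and 91.6% (interval 87.3 to 94.8) in Tension, so what remained of the class in stretched skin was mostly these 3 transcripts.

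The other members of the class were close to absent in Tension. The 6 measured Krtap19 genes went from 1600 counts together to 1, and Krtap19-5 held that count. Krtap19-3 had 500 counts in Control and 0 in Tension, at least 137-fold lower against a floor of 3 counts (lower end of its interval 111-fold). Krtap19-9b had 357 and 0 counts, at least 97.9-fold lower. Krtap19-5 had 383 and 1 counts, a ratio of 315-fold with a wide interval of 56.2 to 12484. Krtap19-2 had 177 and 0 counts, Krtap19-4 had 94 and 0, and Krtap19-1 had 89 and 0, with lower limits of 48.6-fold, 25.8-fold and 24.4-fold that follow their Control counts.

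Krtap16-3, which shares its first number with Krtap16-1, had 574 counts in Control and 1 in Tension, 472-fold lower (interval 84.5 to 18693). Krtap21-1 had 310 and 1 counts, 255-fold lower (interval 45.5 to 10110), and Krtap22-2 had 272 and 3, 74.6-fold lower (interval 25.3 to 364). In subfamily 6, Krtap6-5 had 479 and 7 counts (log2 fold change -5.82), Krtap6-1 had 438 and 6 (-5.91) and Krtap6-2 had 282 and 1. Subfamily 6 kept more counts in Tension, 14 of 1199, than the 1 of 1600 left in subfamily 19, and both were far below the 115 of Krtap8-1.

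The cysteine-rich genes supply the sulphur that crosslinks the shaft. There were 35 symbols, of which 34 were measured, with 17132 counts in Control and 723 in Tension. The sum had a log2 fold change of -4.29 (interval -4.40 to -4.18), or 19.5-fold lower, and the median gene was 16.9-fold lower. At least 16-fold lower were 19 of the 34 genes, and 6 had 3 counts or fewer in Tension.

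The high sulphur genes (subfamilies 1, 2, 3, 10, 11, 12, 13, 14, 15, 24, 26 and 27) went from 11356 to 417 counts, a log2 fold change of the sum of -4.49. Krtap11-1 had 1954 counts in Control and 80 in Tension (FPKM 137 and 6.81), a log2 fold change of -4.33. In subfamily 1, Krtap1-5 had 1673 and 31 counts (FPKM 114 and 2.56), a log2 fold change of -5.47 (interval -6.04 to -4.96). Its neighbours Krtap1-3 (522 and 31 counts, -3.79) and Krtap1-4 (525 and 41 counts, -3.40) started lower and kept as many or more counts, so Krtap1-5 was first of the 3 in Control and shared the lowest count with Krtap1-3 in Tension.

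In subfamily 3, Krtap3-1 had 923 and 32 counts (FPKM 108 and 4.55) with a log2 fold change of -4.57, whereas Krtap3-2 had 394 and 46 counts with -2.82 (interval -3.29 to -2.37). Krtap3-2 thus passed Krtap3-1 in counts in Tension although it had fewer in Control. Krtap2-4 had 306 and 13 counts, Krtap13-1 548 and 18, Krtap24-1 358 and 19, and Krtap26-1 366 and 17, with log2 fold changes between -3.96 and -4.65. Krtap27-1 was low in both, with 28 and 0 counts, at least 7.68-fold lower.

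Krtap14 and Krtap15 stood apart from the other high sulphur genes. Krtap15 had 1400 counts in Control and 6 in Tension, the largest log2 fold change among the genes above the floor in both libraries, at -7.59 (interval -9.03 to -6.46), or 192-fold lower (interval 88.0 to 524). Krtap14 had 736 and 7 counts, a log2 fold change of -6.44 (interval -7.75 to -5.39). Krtap15 was sixth of the Krtap genes by FPKM in Control, at 94.0, and 33rd in Tension, at 0.49. The spans of these neighbouring genes overlap on opposite strands, but their exons do not. The exons of Krtap15 overlap those of the long noncoding RNA 4930553J12Rik over 19.1% of their length, and how reads there were assigned is not given in the sources used here. The same limit holds for Krtap10-10, with 43.4% of its exon length shared with Gm2696 (274 and 6 counts), and for Krtap24-1, with 9.52% shared with Gm49688.

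The ultra-high sulphur genes (subfamilies 4, 5, 9 and 17) went from 5776 to 306 counts, a log2 fold change of the sum of -3.96 (interval -4.13 to -3.79), or 15.5-fold lower. In the largest subfamily, Krtap4, the sum went from 3429 to 175 counts, and its leading gene Krtap4-7 had 832 and 39 counts (log2 fold change -4.13). The other 7 measured Krtap4 genes had 37 to 673 counts in Control and 2 to 34 in Tension. Krtap9-3 had 664 and 26 counts (-4.39). Krtap9-1 had 253 and 5 counts, with a larger log2 fold change of -5.38 and a wide interval (-7.02 to -4.14) that held the value of Krtap9-3.

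Of the subfamilies known from the hair cuticle, the ultra-high sulphur Krtap5 went from 956 to 57 counts (log2 fold change of the sum -3.79) and the high sulphur Krtap10 from 1029 to 53. Krtap5-5 had 410 and 31 counts (-3.44), the other 4 Krtap5 genes had 58 to 310 in Control and 1 to 14 in Tension, and Krtap10-10 had 592 and 28. Krtap12-1 had 83 counts in Control and 0 in Tension, at least 22.8-fold lower against the floor (lower end of its interval 18.1-fold), the one of these subfamilies with no count left. Krtap17-1, the one gene of its subfamily, had 461 and 43 counts and a log2 fold change of -3.14 (interval -3.63 to -2.69), or 8.82-fold lower. With Krtap3-2 it had the smallest change among genes with more than 100 counts in Control.

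The lowest members of the family could hardly be ranked. Krtap31-1 and Krtap31-2, whose class was not assigned, each had 15 counts in Control and 0 in Tension, at least 4.12-fold lower. Krtap9-5 had 13 and 0 counts, at least 3.57-fold lower, and it set the small end of the range over the family at -1.83. Its bound follows from its 13 Control counts and says nothing of a smaller change.

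The make-up of the family differed between the libraries. High-glycine-tyrosine genes held 36.9% of Krtap counts in Control (interval 36.3 to 37.5) and 24.8% in Tension (22.1 to 27.6). Cysteine-rich genes held 63.0% and 75.2% (72.4 to 77.9 in Tension). Of all Krtap counts, the high sulphur genes held 41.8% in Control and 43.4% in Tension (40.2 to 46.6), with intervals that overlap, and the ultra-high sulphur genes 21.2% and 31.8% (28.9 to 34.9). Of the cysteine-rich counts alone, high sulphur genes held 66.3% in Control and 57.7% in Tension (54.0 to 61.3). Krtap8-1 alone held 12.5% and 11.97% (9.98 to 14.2), a share that did not differ beyond counting error. The members were also classed by codon content instead of number, with at least 35% glycine and tyrosine first, then at least 10% cysteine. This put Krtap5-2 and Krtap5-3 (34.6 and 35.1% cysteine) in the high-glycine-tyrosine class and Krtap16-1 in the cysteine-rich class. It left 6 genes unclassed, Krtap7-1 among them, with 4874 counts in Control and 99 in Tension. By this rule the high-glycine-tyrosine share was 28.4% in Control and 15.6% in Tension. By number, its share of summed FPKM was 47.2% and 30.3%.

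By codon content of the coding sequences, the high-glycine-tyrosine genes of chromosome 16 other than Krtap7-1 and Krtap8-1 held 54.0 to 69.2% glycine and tyrosine. Krtap8-1 held 47.5% and Krtap7-1 29.9%. Krtap16-1 held 3.78% with 20.1% cysteine, so its coding sequence goes against the class that its number gives it. Krtap15 held 24% glycine and tyrosine and 4% cysteine, and Krtap14 held 17.4% and 8.98%, low in cysteine for the high sulphur class. Across the 51 genes, Spearman's rho with the log2 fold change was -0.68 for glycine and tyrosine, 0.63 for cysteine, 0.49 for exon length and -0.56 for FPKM in Control. Genes of 1 subfamily are related in sequence and all share the same 2 libraries, so these are descriptions over genes that are not independent.

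**Figure D2:**
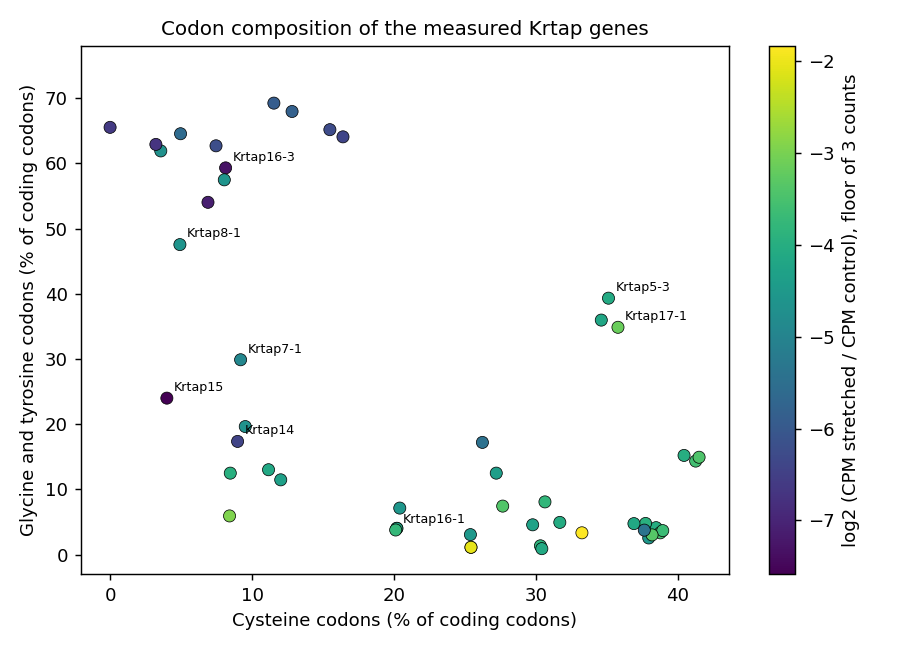
Share of glycine and tyrosine codons (vertical axis, percent) against that of cysteine codons (horizontal axis, percent) for each measured Krtap gene, with the colour giving the log2 fold change (Tension over Control, counts of 3 or fewer set to 3). Genes with at least 54.0% glycine and tyrosine are mostly dark, that is more reduced, and Krtap14 and Krtap15 have large changes at 17.4 and 24%.

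The genes lie in clusters on 4 chromosomes (GENCODE M21, GRCm38). The summed log2 fold change was -3.79 for the 5 genes on chromosome 7, -4.11 for the 3 on chromosome 10, -4.07 for the 22 on chromosome 11 and -5.18 for the 21 measured genes on chromosome 16. Ordered by position, most of the strongly reduced genes of chromosome 16 were neighbours. The segment from Krtap14 to Krtap6-2 (chr16:88818667-89420111, 601 kb) holds 15 Krtap symbols, 14 of them measured. It was chosen after its values were seen, so the values below describe it and test nothing.

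Within the segment, the counts summed to 6091 in Control and 33 in Tension, 152-fold lower (interval 108 to 221). All 14 genes were at least 16-fold lower, each had between 0 and 7 counts in Tension, and the median log2 fold change was -6.34 with the floor applied. The 7 measured genes on chromosome 16 outside the segment went from 8448 to 298 counts, 23.3-fold lower, with a median of -4.33. The 37 measured genes outside it on all chromosomes went from 21100 to 928 counts, 18.7-fold lower, with a median of -4.03. The segment gave 22.4% of Krtap counts in Control and 3.43% in Tension (interval 2.38 to 4.79).

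By subfamily number the segment holds genes of both classes. Its 12 measured high-glycine-tyrosine genes went from 3955 to 20 counts, 163-fold lower (interval 105 to 267), and Krtap14 and Krtap15 from 2136 to 13, 135-fold lower (interval 78.9 to 254). Krtap14 and Krtap15 count as cysteine-rich by number only, since both held under 10% cysteine codons, and by codon content neither falls in that class. The same holds outside the segment for Krtap13-1 (9.52%), Krtap24-1 (8.47%) and Krtap27-1 (8.42%). Outside it, Krtap7-1, Krtap8-1 and Krtap16-1 went from 6074 to 218 counts, 22.9-fold lower (interval 20.03 to 26.4), and the 32 measured cysteine-rich genes from 14996 to 710, 17.4-fold lower (interval 16.1 to 18.8). These sums describe a segment that was chosen on the same values.

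Against the pooled log2 fold change of -4.12 of the cysteine-rich genes outside the segment, the interval of 25 of those 32 genes held this value. The intervals of Krtap1-5, Krtap9-1 and Krtap12-1 lay below it, and those of Krtap1-4, Krtap3-2, Krtap5-5 and Krtap17-1 lay above it. Inside the segment 0 of 14 intervals held it and all 14 lay below. The value was pooled from those 32 genes and the segment was chosen for its low values, so these counts describe the spread and nothing more.

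To show genes of like Control counts side by side, each segment gene was set beside the outside gene nearest in Control count, and in 11 of 14 pairs the intervals were apart. Krtap19-3 (500 counts in Control, 0 in Tension) stood beside Krtap3-3 (511 and 23), and Krtap16-3 (574 and 1) beside Krtap10-10 (592 and 28). Krtap6-1 (438 and 6) stood beside Krtap10-4 (437 and 25), and Krtap21-1 (310 and 1) beside Krtap5-2 (310 and 14). The intervals of Krtap19-1 and Krtap19-4 overlapped that of Krtap12-1 (83 and 0 counts), and that of Krtap22-2 overlapped that of Krtap9-1 (253 and 5). The pairs match counts and not FPKM, which in Control was 67.2 for Krtap19-3 and 49.1 for Krtap3-3, and 67.5 for Krtap16-3 and 32.0 for Krtap10-10. The part of the Control level in the difference was not tested.

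**Figure D3:**
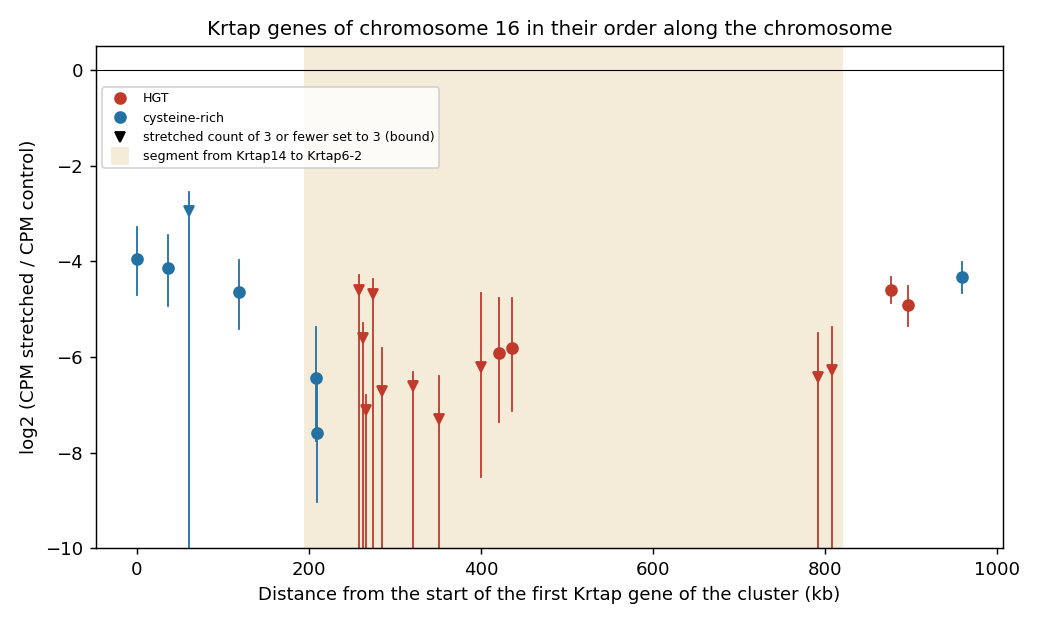
Log2 fold change (Tension over Control) of the measured Krtap genes of chromosome 16 against their distance in kb from the first of them, with exact 95% counting intervals cut at the lower edge of the plot. Triangles mark genes at 3 counts or fewer in Tension set to 3, colours mark the class and the shaded band marks the segment. Genes in the band lie between -4.61 and -7.59 and those outside it between -2.94 and -4.92, so the ranges overlap.

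The letters searched were found in promoters both inside and outside the segment. TATAAA or TATATAA stood within 50 bases before the start in 8 of 14 segment promoters (57.1%) and 26 of 32 outside it (81.25%). TATAAA, the form searched first, stood there in 5 of 14 (35.7%) and 24 of 32 (75%), and TATATAA in 3 (21.4%) and 9 (28.1%). CTTTGA was in 6 of 14 (42.9%) and 8 of 32 (25%). With so few promoters these shares are given as a description, and they include the 4 sequences printed above.

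Sequence shared between members limits single-gene values. Of the 51 measured genes, 17 shared at least 10% of their 76-base stretches with transcripts of other genes. The shares were 70.5% for Krtap4-13, 41.8% for Krtap2-4, 41.1% for Krtap10-10 and 39.0% for Krtap3-3, and reads of such genes may have been split or dropped in counting. In the segment they were 24.1% for Krtap6-1, 12.3% for Krtap15, 11.7% for Krtap19-1 and 10% for Krtap6-5. Without the 17 genes the median log2 fold change was -6.42 in the segment (10 genes) and -4.08 outside it (24 genes). Members that share less remained in these medians, and the part of shared reads in the values was not tested.

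The hair keratins, the filament proteins that the Krtap proteins crosslink, were lower too. The 15 measured genes went from 25609 to 2100 counts, a log2 fold change of the sum of -3.33 (interval -3.39 to -3.26). The median hair keratin had a log2 fold change of -3.83, beside the Krtap median of -4.19. Per 100 hair keratin counts there were 106 Krtap counts in Control and 45.8 in Tension, and without Krt35, which held 977 of the 2100 hair keratin counts in Tension, there were 142 and 85.6. Krt35 had 6503 and 977 counts (log2 fold change -2.45) and Krt85 had 1352 and 179 (-2.64). Krt32 (-2.53), Krt36 (-2.34) and Krt84 (-2.46, from 40 and 6 counts) were close to these. The other 10 hair keratins ran from -3.43 for Krt40 to -4.47 for Krt83, and the Krtap sum stood at -4.54. Among Krtap genes with more than 3 counts in Tension, Krtap3-2 was nearest to Krt35 and Krt85 at -2.82, and its interval (-3.29 to -2.37) overlaps those of Krt35 (-2.55 to -2.36) and Krt85 (-2.87 to -2.41). Krtap3-2 is also among the 17 genes with shared sequence, at 26.99% of its stretches.

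Lists for other layers and cells of the growing follicle, chosen with earlier results known, had smaller medians, although some of their genes passed the least reduced hair keratins. The median log2 fold change was -2.45 for 10 inner root sheath genes, of which Tchh, a structural protein of that sheath, had 61054 and 6885 counts (-2.87). It was -2.59 for 5 other shaft genes, among them S100a3 of the cuticle (3820 and 405 counts, -2.96). It was -1.67 for 10 matrix and cortex regulators, 8 of which were at least 2-fold lower, including Hoxc13 (1341 and 301, -1.87), Lef1 (783 and 185, -1.80) and Foxn1 (592 and 155, -1.65). Vdr, the most counted regulator, had 3350 and 1714 counts (-0.69). Pigment genes had a median of -1.52, with Dct at 2087 and 837 counts (-1.04), and 5 proliferation genes -1.05, with Mki67 at 2847 and 1126 (-1.06). The medians of the shaft lists thus lay below those of the regulators and of the proliferation genes.

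Markers of other parts of the skin were not alike. Bulge and outer root sheath genes had a median of -0.36, with Krt15 at 15280 and 9127 counts (-0.46) and Cd34 against the others at 0.08. Epidermal genes had a median of 0.08, with Krt10 at 63504 and 53008 counts (0.02) and Ivl against it at -0.53, so epidermal transcripts were present at similar levels in both libraries. The medians were 0.96 for 3 fibroblast genes, 1.47 for 3 macrophage genes, -0.77 for 3 adipocyte genes and -0.53 for 5 muscle genes, with Myh1 against the last at 1.10. Of the muscle genes, the fast myosin heavy chain Myh4 had 91029 and 3156 counts, a log2 fold change of -4.57 close to that of the Krtap sum, and Myh1 had 31133 and 54759. The most counted muscle gene, Acta1, had 127849 and 100096 (-0.07), with Ckm at -1.05 and Tnnt3 at -0.53. The part of the muscle genes in the Krtap result was not tested. Epidermal, follicle and dermal transcripts of the labelled tissue were present in both libraries.

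**Figure D4:**
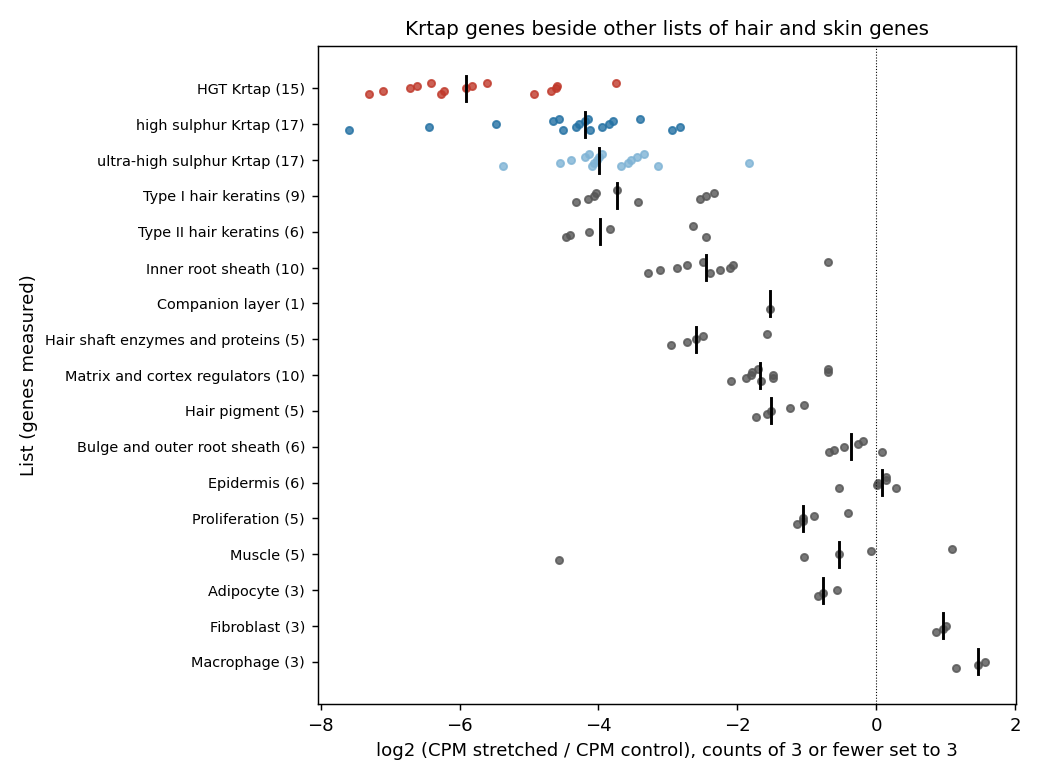
Log2 fold change (Tension over Control) of the genes of each list, 1 point per gene, with counts of 3 or fewer set to 3 and a bar at the median of the list. The Krtap medians of -5.91, -4.19 and -3.99 (high-glycine-tyrosine, high sulphur and ultra-high sulphur) stand beside -3.74 and -3.98 for the hair keratin lists, with the last of each nearly equal, and 0.08 for the epidermis.

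A rule after the kind used in the study, with FPKM + 1 of Control and Tension multiplied to a value above 10 and at least 2-fold lower, called 43 of the 43 measured Krtap genes that passed its level, and 2.44% of the genes that passed it in the table. With no 1 added, the product of FPKM was above 10 for 32 Krtap genes, all 32 of them called, against 2.86% of the genes that passed in the table. The product without 1 added drops 19 measured genes, all with 8 counts or fewer in Tension, Krtap19-3 and Krtap16-3 among them. Members that passed did so through Control, where they were high.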

How the data were processed

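RNA was extracted from the whole layer of stretched and non-stretched skin and sequenced in single-end reads of 76 bases, with 1 library per condition. The authors kept bases of Phred quality 20 or above and reads longer than 35 bases, and used TopHat2 for alignment (build mm10). The deposited values are raw counts of reads per gene symbol, without normalization. The counting program, the annotation behind it and how it handled strand or shared reads are not given in the sources used here.

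All 24421 gene symbols were used for library totals. CPM is the count scaled to the library total, and FPKM is the CPM per kilobase of exon of GENCODE M21 (GRCm38), which was matched for 24033 symbols. Counts at or under 3 were raised to 3 in medians, ranks and counts of members, whereas single members with 1 to 3 counts are given by their own ratio. Intervals are exact 95% Clopper-Pearson intervals and cover counting error only. With 1 library per condition no test was possible and no p-value is given. The members, classes and lists were chosen with earlier results of these data known. Named genes are the member with the most counts in each subfamily, the 10 highest in control FPKM and the 10 largest falls among those with at least 100 counts. In some of the other lists, but not all, the gene with the most counts and those against the median were named. Other genes were named after their values were seen. Codon shares come from the longest coding sequence of each gene, and shared reads were judged from the 76-base stretches found in transcripts of other genes. The interval script was tested on simulated data. Scaling alternatives used edgeR 4.0.16 and DESeq2 1.42.0 in R 4.3.3, and the rest was run in Python 3.11.15 with scipy 1.17.1.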

Additional observations from a re-analysis of the deposited data

How the results depend on the processing

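No paired analysis was possible because Control and Tension are single libraries, neither of which could be left out. Of the alternatives for the Krtap, class and share values 47 stayed within the counting interval or 1.5 times the count, 12 moved and none reversed, and all 255 values of single members stayed within theirs. Each other scaling shifted all log2 fold changes by the same amount, between -0.02 and 0.11. That is too little to take any member out of its interval or to change its sign, so those outcomes were fixed in advance. Medians were judged by the interval of the middle gene or genes, which for the cysteine-rich genes ran from -7.85 to -3.32. The summed Krtap log2 fold change was -4.44 with TMM, -4.43 with the median of ratios and -4.44 with the upper quartile, against -4.54. The cysteine-rich sum was -4.17 with the median of ratios. Classed by the codon rule given above, the sums were -5.40 for the high-glycine-tyrosine and -4.08 for the cysteine-rich genes. With 1 CPM added, the medians were -3.57 over the family, -4.40 over the high-glycine-tyrosine genes (main value -5.91) and -3.40 over the cysteine-rich genes (-4.08), so the classes stood closer, since an added CPM shrinks low values by construction. The high-glycine-tyrosine share in Tension was 30.4% without members that share sequence (42.4% in Control), 15.6% by codons and 30.3% by FPKM, and was lower than in Control each time. With the product of FPKM above 10 and no 1 added, chosen after seeing the data, 32 genes were called at least 2-fold lower, against 51, since genes at or near 0 in Tension fail its level. For the segment and the other lists, alternatives chosen after seeing the data gave 63 values of little change and 19 that moved, with 0 reversed. Depth limits the 18 genes at 3 counts or fewer in Tension. Their order among themselves can be read only where intervals are apart, as for Krtap5-1 (-6.31 to -2.37) and Krtap19-3 (upper end -6.80).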

Other observations

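Genes under other symbols lie among the Krtap genes of chromosome 16. Inside the segment from Krtap14 to Krtap6-2, Gm10229 had 705 counts in Control and 6 in Tension, a log2 fold change of -6.60. Gm10228 had 120 and 1 counts, a log2 ratio of -6.63 with an interval of -11.9 to -4.12. 1110025L11Rik had 188 and 1 counts, a log2 ratio of -7.27. Gm10229 is the gene with which Krtap6-1 shares most of its common stretches (24.1% of its stretches are shared), and 1110025L11Rik is among those of Krtap6-5 (10%), so their reads may not be separate from those of the Krtap genes. Outside it, the tight junction gene Cldn8 had 221 and 48 counts, a log2 fold change of -1.92 (interval -2.40 to -1.47), and Tiam1, a Rac exchange factor, had 2564 and 1304 (-0.69). These genes were looked up after the segment had been chosen.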
